A study of Homo sapiens with 12 samples.

Results

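The genes described here encode epithelial cell junctions and cell polarity: 43 genes of adherens junctions, desmosomes, tight junctions, gap junctions and apical polarity, with a few regulators of epithelial splicing and transcription. They were taken by gene symbol, in its current or an earlier form, and no measured value entered that rule. Earlier results of these data were, however, known when the list was made. Of the 43 genes, 41 had a probe named in the array annotation used here, and 33 of these were bright enough to test. The array as a whole carried 20047 genes with a symbol, of which 10371 were tested. TJP3 and F11R had no probe named in that annotation and were not analysed here.

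Epithelial cells hold together through stacked junctions. Tight junctions of claudins, occludin and MARVEL-domain proteins seal the space between cells, adherens junctions join neighbours through cadherins tied to actin by catenins, and desmosomes join them through desmogleins and desmocollins tied to keratin filaments by plakophilins, plakoglobin and desmoplakin. Gap junctions, made of connexins, let small molecules pass from cell to cell. In mammary epithelium these structures separate the apical from the basal side of the cell, and their genes are known to be repressed by transcription factors of the SNAI and ZEB families and maintained by factors such as GRHL2 and OVOL2.

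The cells were MCF10A, a human mammary epithelial line that is not transformed. The 3 groups were cells with a control vector (VEC), cells with stable expression of the JM-a CYT1 intracellular domain (ICD) from the receptor tyrosine kinase ERBB4, and cells with stable expression of the JM-a CYT2 ICD. The CYT1 form contains a binding site for phosphoinositide 3-kinase, and the CYT2 form does not. All groups were grown in the same regular medium with 10% serum. The promoter that drove the ICD, and whether each line was 1 clone or a pool of cells, are not stated in the labels. Transcripts were measured on 12 Illumina bead arrays, 4 per group, labelled as 2 biological replicates with 2 technical arrays each. Values below are log2 levels after background correction, normalisation and an offset of 16, and array values are listed as biological replicate 1 with technical arrays 1 and 2, then biological replicate 2 with technical arrays 1 and 2.

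Between 17514 and 18721 probes were above background on an array. No array detected the 1 ERBB4 probe (0 of 12, detection p-values 0.439 to 0.964), so it checks neither the labels nor the ICD. Within a group, arrays labelled as technical repeats of 1 biological sample were about as alike as arrays with different biological numbers. Pearson's r over the tested probes was 0.9874 to 0.9906 for arrays sharing a biological number, 0.989 to 0.991 for arrays sharing only a technical number and 0.9871 to 0.9902 for arrays sharing neither, which is a description over probes that share each array. The biological number defined the replicates, as the labels say, and the counts are given again with the technical number in its place. The labels do not say that the replicates came from separate cultures, so p-values measure the spread between these samples, which may be technical.

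More of the tested junction genes were called lower than higher in each ICD group against VEC. In CYT1 cells 17 of the 33 tested genes fell, 1 rose and 15 did not pass the test (limma, Benjamini-Hochberg adjustment over all 17356 tested probes, adjusted p under 0.05). Over all tested probes 35.9% were called in this comparison, 16.7% higher and 19.2% lower, against 54.5% of the tested junction genes. On the deposited log2 values, neither background-corrected nor normalised, the split of all calls was 2292 higher and 5037 lower. In CYT2 cells 13 fell, 0 rose and 20 were not called, or 39.4%, against a background of 30.4%, with 14.7% of all probes higher and 15.6% lower (2070 and 4560 probes on the deposited log2 values). At an unadjusted p under 0.05, 20 of the 33 stood out in CYT1 and 19 in CYT2, as did 8085 and 7362 of the 17356 tested probes. The median log2 difference of the tested genes was -0.29 in CYT1 and -0.31 in CYT2 cells, and that of all tested probes was -0.04 and -0.05.

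Both use the same VEC arrays, so their values are set side by side and are not independent. All 4 ICD arrays lay below all 4 VEC arrays for 19 genes in CYT1 and for 16 in CYT2, against 20.2% and 18.7% of all probes. Genes detected in only 1 group had to differ in order to be tested, so the same counts were made over the 26 genes above background on all 12 arrays. Of these 26, 14 fell and 1 rose in CYT1 cells, or 57.7% against 38.1% of the probes equally detected, and 11 fell and 0 rose in CYT2 cells, or 42.3% against 32.3%. A fall of 2-fold or more was reached by 2 of the 26 in CYT1 cells (GJB5 and PKP2), where 1.6% of the probes equally detected fell that far, and by 3 in CYT2 cells (GJB5, PKP2 and PKP3), where 0.926% did. With the technical number as the replicate, limma called 13 of the 33 genes lower and 1 higher in CYT1 (30% of all probes called), and 12 lower in CYT2 (24.6%). In such cultures, fewer cells of a type and less RNA per cell cannot be told apart.

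**Figure D1:**
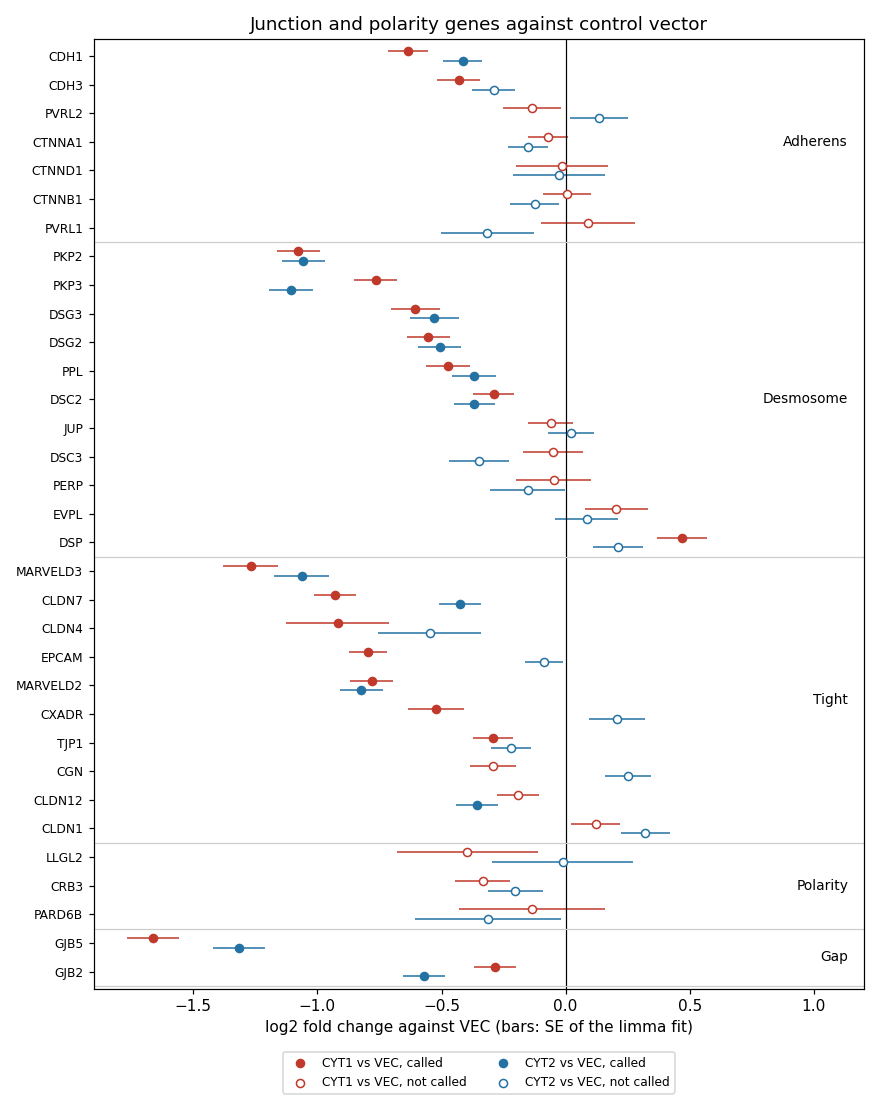
Log2 fold change of the 33 tested genes against VEC, with the fit's standard error as bars, for CYT1 (red) and CYT2 (blue); filled circles passed adjusted p under 0.05, and horizontal lines part the junction classes. GJB5, PKP2 and MARVELD3 lie farthest left in CYT1, DSP is the only filled point right of 0, and CLDN7, EPCAM, CXADR and CGN lie farther right in CYT2 than in CYT1. MARVELD2 and MARVELD3 were not above background on any ICD array, so their points are values of the fit and not measured levels.

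By junction class, the calls are set beside the 35.9% and 30.4% of all probes called in CYT1 and CYT2. Of 7 tested adherens junction genes 2 fell in CYT1 cells and 1 in CYT2 cells, 28.6% and 14.3%, both below those shares. Of 11 desmosome genes 6 fell in each ICD group, and 1 rose in CYT1, so that 63.6% and 54.5% were called. Of 10 tight junction genes 7 fell in CYT1 and 4 in CYT2, 70% and 40%. MARVELD2 and MARVELD3 are among these falls in both groups. They were above background in VEC alone and were tested for that reason. Some difference was thus bound to be seen for them, and the tight junction shares are in part set by the filter. Both tested gap junction genes fell in both groups. Of the 3 tested polarity genes limma called 0 in either group, with 1 in CYT1 and 0 in CYT2 at an unadjusted p under 0.05, although CRB3 was called lower in CYT1 in 8 of 21 alternatives. Of the 33 genes 12 were called lower in both groups, as were 12.5% of all tested probes, in comparisons that share the VEC arrays: CDH1, DSC2, DSG2, DSG3, PKP2, PKP3, PPL, CLDN7, MARVELD2, MARVELD3, GJB2 and GJB5.

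**Figure D2:**
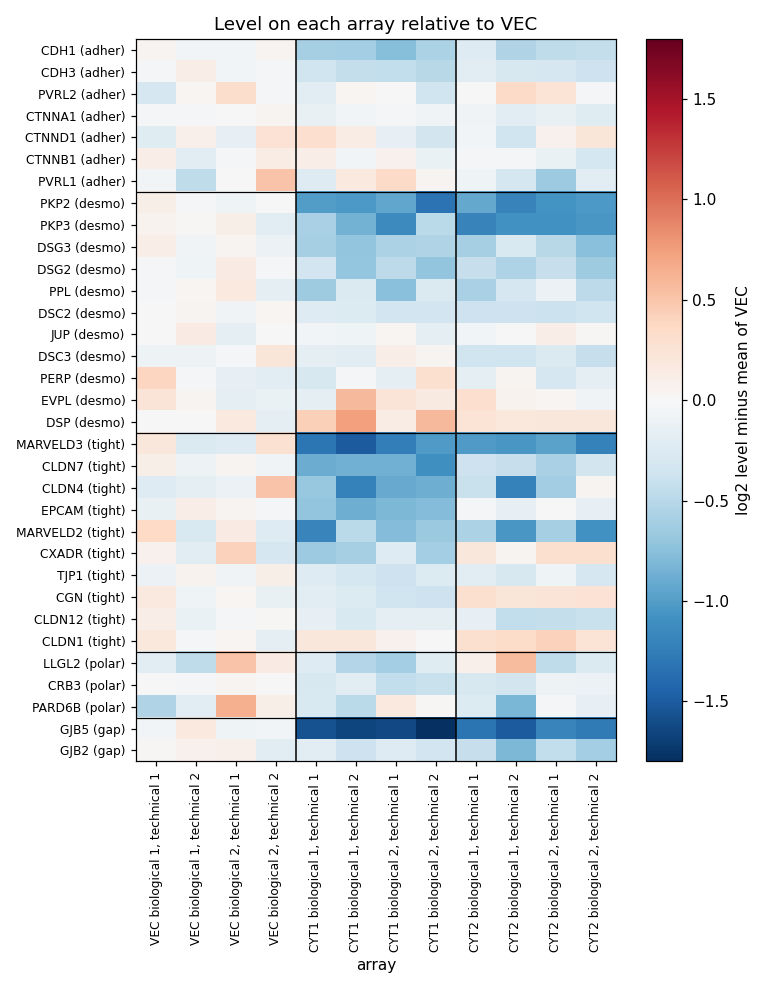
Each array's log2 level minus the mean of VEC, for the 33 tested genes (rows, grouped by junction class) on the 12 arrays (columns, grouped as VEC, CYT1 and CYT2); blue is below VEC and red above. The rows of GJB5, PKP2 and MARVELD3 are blue on all 8 ICD arrays, the catenin rows stay pale, and the CYT1 columns of CLDN7 and EPCAM are darker blue than the CYT2 columns.

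Promoter sequence was available for 24 of the 43 genes in RefSeq's GRCh38.p14 annotation, as 300 bases around the gene's start. The motif CACCTG, an E-box known to be bound by SNAI and ZEB repressors, was searched for on both strands, where its reverse complement reads CAGGTG. It was found in 9 of the 24 promoters (37.5%) and in 5625 of 27305 promoters of the same length (20.6%). It was present in 4 of 8 promoters of genes that fell in CYT1 cells and in 2 of 11 of tested genes that did not. The promoters were not split by the CYT2 calls. CRB3, called in neither group, held the motif 5 times. AACCGGTT, a motif known for the GRHL family, was in 0 of the 24 and in 32 of all promoters (0.117%). A match describes the letters in the window and is neither a binding site nor a cause, and these small counts were not tested. Promoters are shown for a desmosomal cadherin that fell and the desmosomal gene that rose, which each hold the motif more than once, for the gap junction gene GJB2, which holds it once, and for CLDN7 and MARVELD2, which fell and lack it. Capitals mark the motif, and each sequence reads 5′ to 3′ on the gene's own strand: DSG2 at chr18:31497927-31498226 (plus), DSP at chr6:7541421-7541720 (plus), GJB2 at chr13:20192889-20193188 (minus), CLDN7 at chr17:7263164-7263463 (minus) and MARVELD2 at chr5:69414866-69415165 (plus).
DSG2: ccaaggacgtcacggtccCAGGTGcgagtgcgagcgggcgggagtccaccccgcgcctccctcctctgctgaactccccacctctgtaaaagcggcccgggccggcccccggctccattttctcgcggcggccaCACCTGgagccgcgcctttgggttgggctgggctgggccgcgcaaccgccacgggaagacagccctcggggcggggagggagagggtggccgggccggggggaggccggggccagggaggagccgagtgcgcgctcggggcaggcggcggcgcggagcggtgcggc
DSP: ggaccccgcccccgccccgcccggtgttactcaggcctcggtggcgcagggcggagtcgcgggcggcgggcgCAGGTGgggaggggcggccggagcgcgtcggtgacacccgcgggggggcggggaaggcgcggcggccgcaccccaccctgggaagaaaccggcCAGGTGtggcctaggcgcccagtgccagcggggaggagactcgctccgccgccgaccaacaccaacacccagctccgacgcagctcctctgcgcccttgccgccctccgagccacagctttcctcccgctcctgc
GJB2: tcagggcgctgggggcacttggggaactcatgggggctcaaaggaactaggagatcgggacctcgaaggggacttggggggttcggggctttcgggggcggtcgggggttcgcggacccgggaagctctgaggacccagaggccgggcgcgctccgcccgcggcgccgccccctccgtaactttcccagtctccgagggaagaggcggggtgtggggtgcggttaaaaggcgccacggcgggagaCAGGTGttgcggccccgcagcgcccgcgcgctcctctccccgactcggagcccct
CLDN7: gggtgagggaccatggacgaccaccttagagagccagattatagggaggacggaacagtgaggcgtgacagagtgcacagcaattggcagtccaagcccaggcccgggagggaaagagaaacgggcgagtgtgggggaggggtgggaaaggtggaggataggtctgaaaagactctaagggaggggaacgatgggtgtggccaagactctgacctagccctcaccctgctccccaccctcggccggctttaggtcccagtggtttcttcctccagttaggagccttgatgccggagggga
MARVELD2: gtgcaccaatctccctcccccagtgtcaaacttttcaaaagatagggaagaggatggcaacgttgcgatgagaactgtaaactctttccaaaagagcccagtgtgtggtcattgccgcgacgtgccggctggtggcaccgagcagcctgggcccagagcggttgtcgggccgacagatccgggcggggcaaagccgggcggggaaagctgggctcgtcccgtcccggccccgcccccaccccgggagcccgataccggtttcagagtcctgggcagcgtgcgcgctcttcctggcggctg

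In adherens junctions the cadherin genes CDH1 and CDH3 fell in CYT1 cells and CDH1 also in CYT2 cells, while the catenins were not called. CDH1, the gene of E-cadherin, stood at 12.14, 12.04, 12.04 and 12.14 on the VEC arrays, at 11.50, 11.48, 11.33 and 11.52 on the CYT1 arrays, and at 11.85, 11.55, 11.64 and 11.66 on the CYT2 arrays. VEC was highest and CYT1 lowest, and no array of any group reached the range of another. CDH1 fell by 0.63 ± 0.08 on the log2 scale in CYT1 cells (SE, n = 2 replicates of 2 arrays per group as in every value that follows; limma adjusted p = 0.0023) and by 0.42 ± 0.08 in CYT2 cells (limma adjusted p = 0.0123). The CYT2 call was lost without VEC replicate 1, VEC replicate 2 or CYT2 replicate 2, with adjusted p of up to 0.132 over all settings. The difference between the ICD groups, 0.22 higher in CYT2, did not pass the test (limma adjusted p = 0.242).

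CDH3, the gene of P-cadherin, a cadherin of basal epithelial cells, stood at 11.31, 11.47, 11.29 and 11.31 in VEC, at 10.99, 10.92, 10.90 and 10.85 in CYT1, and at 11.15, 11.05, 11.05 and 10.98 in CYT2. All 8 ICD arrays were below the VEC arrays, while the lowest CYT2 array was just under the highest CYT1 array. CDH3 fell by 0.43 ± 0.09 in CYT1 (limma adjusted p = 0.0122), whereas its difference of -0.29 ± 0.09 in CYT2 missed the threshold (limma adjusted p = 0.0511). The call in CYT1 was lost without VEC replicate 1 or without CYT1 replicate 2, at an adjusted p of up to 0.0672 over all settings tried.

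The catenins, which link cadherins to actin, were not called in either comparison. Log2 differences from VEC in CYT1 and CYT2 were -0.07 and -0.15 for CTNNA1 (alpha-catenin), 0.00 and -0.13 for CTNNB1 (beta-catenin), and -0.01 and -0.03 for CTNND1, which was above background on only 3 of the 4 arrays in each ICD group. CTNNA1 lay between 12.97 and 13.25 on all 12 arrays. Of the nectins, which start cell contacts beside cadherins, PVRL1 (NECTIN1) differed by 0.09 and -0.31 and PVRL2 (NECTIN2) by -0.14 and 0.13, none of them called, though a dimmer PVRL2 probe fell by 0.34 in CYT1 (limma adjusted p = 0.0388). PVRL4 (NECTIN4) was above background on 0 of the 12 arrays, and whether its probe reaches the transcript was not tested.

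In desmosomes the tested plakophilins and desmogleins fell in both ICD groups, plakoglobin was not called and desmoplakin rose in CYT1. PKP2, a plakophilin that joins desmosomal cadherins to desmoplakin, stood at 9.46, 9.32, 9.28 and 9.36 in VEC, at 8.35, 8.32, 8.41 and 8.03 in CYT1, and at 8.43, 8.15, 8.28 and 8.32 in CYT2. The 8 ICD arrays were all below VEC, and the ICD groups overlapped each other. PKP2 was 2.11-fold lower in CYT1 (log2 difference -1.08 ± 0.09; limma adjusted p = 0.000457) and 2.08-fold lower in CYT2 (-1.06 ± 0.09; limma adjusted p = 0.000665). The interval of the difference between CYT2 and CYT1 ran from -0.19 to 0.23 (95%).

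PKP3, a plakophilin of most desmosomes of simple and stratified epithelium, stood at 8.76, 8.71, 8.80 and 8.51 in VEC, at 8.12, 7.84, 7.55 and 8.21 in CYT1, and at 7.50, 7.60, 7.61 and 7.65 in CYT2. All ICD arrays were below VEC, and 1 of the widely spread CYT1 arrays lay within the CYT2 range. PKP3 was 1.70-fold lower in CYT1 (limma adjusted p = 0.00164) and 2.15-fold lower in CYT2 (limma adjusted p = 0.000614). CYT2 was 0.34 below CYT1 on the log2 scale, which did not pass the test (limma adjusted p = 0.14). PKP1 was above background on 1 VEC array, 0 CYT1 arrays and 1 CYT2 array and was not tested.

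DSG2 and DSG3 encode desmogleins, the first broadly epithelial and the other typical of basal keratinocytes. DSG2 stood at 12.34, 12.29, 12.51 and 12.33 in VEC, at 12.03, 11.68, 11.90 and 11.66 in CYT1, and at 11.95, 11.82, 11.95 and 11.73 in CYT2. DSG3 stood at 10.40, 10.22, 10.32 and 10.17 in VEC, at 9.68, 9.57, 9.71 and 9.74 in CYT1, and at 9.69, 10.00, 9.78 and 9.53 in CYT2. For both genes all ICD arrays were below VEC and the ICD groups overlapped. DSG2 fell by 0.55 ± 0.09 in CYT1 and 0.51 ± 0.09 in CYT2 (limma adjusted p = 0.0047 and 0.00787), and its other probe fell by 0.72 and 0.48. DSG3 fell by 0.61 ± 0.10 and 0.53 ± 0.10 (limma adjusted p = 0.00585 and 0.0113). The DSG3 call was lost in CYT2 without VEC replicate 1 or CYT2 replicate 2, with adjusted p of up to 0.162 over all settings.

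The desmocollin DSC2 had a small fall that rested on 1 probe. It stood at 10.18, 10.24, 10.12 and 10.22 in VEC, at 9.96, 9.94, 9.85 and 9.85 in CYT1, and at 9.82, 9.82, 9.81 and 9.83 in CYT2. The 3 groups did not overlap. The fall was 0.29 in CYT1 (limma adjusted p = 0.0379) and 0.37 in CYT2 (limma adjusted p = 0.0201), but the other DSC2 probe differed by only -0.20 and -0.10 (limma adjusted p = 0.352 and 0.666). The CYT1 call was lost when only the 2 groups were fitted, also with any 1 of their replicates left out. It was lost too with the technical number as the replicate (limma adjusted p = 0.0702). Leaving out any 1 VEC or CYT2 replicate lost the CYT2 call. DSC3, the desmocollin of basal cells, differed by -0.05 in CYT1 and -0.35 in CYT2 and was not called (limma adjusted p = 0.777 and 0.0777).

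PPL, the gene of periplakin, a plakin of the cornified envelope and of desmosomes, stood at 8.44, 8.52, 8.65 and 8.31 in VEC, at 7.83, 8.22, 7.73 and 8.22 in CYT1, and at 7.89, 8.17, 8.37 and 8.002 in CYT2. In CYT1 the technical arrays numbered 1 were both lower than those numbered 2, and the highest CYT2 array overlapped VEC. PPL fell by 0.47 ± 0.09 in CYT1 (limma adjusted p = 0.00938) and 0.37 ± 0.09 in CYT2 (limma adjusted p = 0.0262). Within technical arrays 1 the CYT1 difference was -0.76 and within technical arrays 2 it was -0.19. With the technical number as the replicate neither PPL call remained (limma adjusted p = 0.0578 in CYT1 and 0.132 in CYT2). The CYT2 call was also lost without VEC replicate 1, VEC replicate 2 or CYT2 replicate 1, with an adjusted p of up to 0.183.

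Desmoplakin was the 1 gene that rose. DSP, which anchors keratin filaments to the desmosome, stood at 9.53, 9.53, 9.71 and 9.37 in VEC, at 9.96, 10.27, 9.67 and 10.11 in CYT1, and at 9.77, 9.72, 9.74 and 9.74 in CYT2. One CYT1 array lay within the VEC range. DSP rose by 0.47 ± 0.10 in CYT1 (limma adjusted p = 0.0148), and its other probe by 0.46 (limma adjusted p = 0.019). In CYT2 the difference was 0.21 on the first probe (limma adjusted p = 0.167) and -0.15 on the other (limma adjusted p = 0.328). Within technical arrays 1 the CYT1 difference was 0.20 and within technical arrays 2 it was 0.74, and the call was lost without VEC replicate 1, VEC replicate 2 or CYT1 replicate 1.

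The remaining desmosomal genes did not pass the test in either group. JUP, the gene of plakoglobin, differed by -0.06 in CYT1 and 0.02 in CYT2, with all 12 arrays between 11.57 and 11.88. PERP, a membrane protein of desmosomes, differed by -0.05 and -0.15, and EVPL (envoplakin) by 0.20 and 0.08. Of 3 tested desmosome-linked genes outside the list, PLEC (plectin, a keratin linker) fell by 0.76 ± 0.12 in CYT1 and 0.63 in CYT2 (lost without VEC replicate 2 or CYT2 replicate 1), and MACF1, an actin and microtubule crosslinker, fell by 0.56 ± 0.09 in CYT1 and differed by -0.26 in CYT2 (limma adjusted p = 0.0764).

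**Figure D3:**
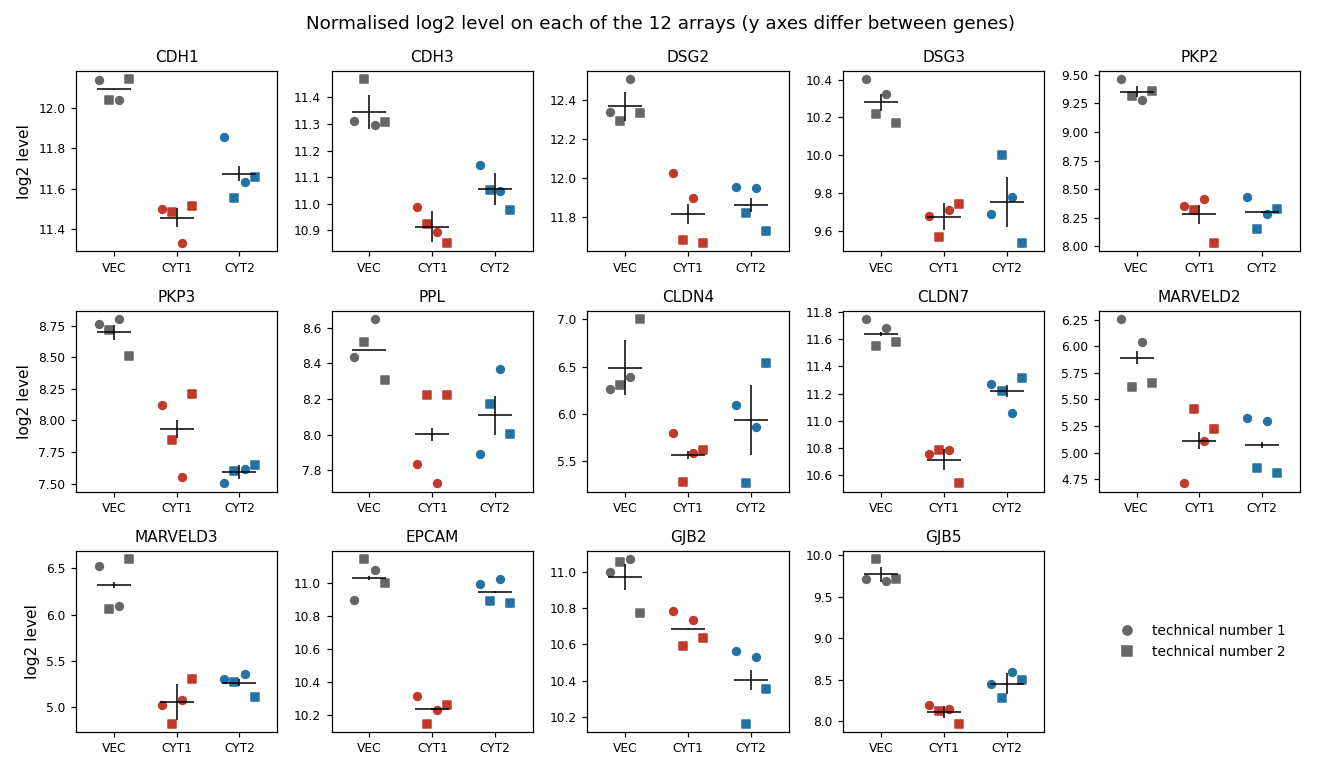
Normalised log2 level on each of the 12 arrays for 14 junction genes, with circles for technical number 1 and squares for technical number 2, and a horizontal mark at each group's mean with a vertical bar for the SD of its 2 biological replicates. In PKP2, GJB5 and MARVELD3 the ICD arrays lie well below VEC, and in EPCAM the CYT2 arrays lie within or just below the VEC range while the CYT1 arrays lie near 10.2.

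The tested tight junction genes had a median log2 difference from VEC of -0.65 in CYT1 cells and -0.29 in CYT2 cells. These medians include MARVELD2 and MARVELD3, which were tested only through VEC. CLDN7, a claudin of the lateral membrane of epithelia, stood at 11.75, 11.55, 11.69 and 11.58 in VEC, at 10.75, 10.78, 10.78 and 10.54 in CYT1, and at 11.27, 11.22, 11.05 and 11.32 in CYT2. The 3 groups did not overlap, with CYT2 between the others. CLDN7 was 1.90-fold lower in CYT1 (-0.93 ± 0.08; limma adjusted p = 0.000693) and fell by 0.43 ± 0.08 in CYT2 (limma adjusted p = 0.0134). The CYT2 call was lost without any 1 of the VEC or CYT2 replicates, with adjusted p of up to 0.19 over all settings.

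CLDN4, a claudin that seals against sodium ions, was near the limit of detection, above background on 4 VEC, 3 CYT1 and 3 CYT2 arrays. It stood at 6.26, 6.31, 6.39 and 6.9997 in VEC, at 5.80, 5.28, 5.59 and 5.62 in CYT1, and at 6.09, 5.27, 5.87 and 6.54 in CYT2. CYT1 lay below VEC, and CYT2 overlapped both. CLDN4 fell by 0.92 ± 0.21 in CYT1 (limma adjusted p = 0.0173), and its CYT2 difference of -0.55 ± 0.21 did not pass (limma adjusted p = 0.0947). The CYT1 call was lost without VEC replicate 2, CYT1 replicate 1 or CYT1 replicate 2, and on uncorrected signals the difference was only -0.36. With the technical number as the replicate, CLDN4 was also called lower in CYT2 (limma adjusted p = 0.0354).

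MARVELD2 (tricellulin, a protein of tricellular corners) and MARVELD3 are MARVEL-domain proteins of tight junctions, and both were above background on the 4 VEC arrays and on 0 of the 8 ICD arrays. MARVELD3 stood at 6.53, 6.07, 6.10 and 6.60 in VEC, at 5.02, 4.82, 5.07 and 5.30 in CYT1, and at 5.30, 5.27, 5.35 and 5.11 in CYT2. It was at least 1.78-fold lower in CYT1 and at least 1.79-fold lower in CYT2 (limma adjusted p = 0.000619 and 0.00153), where the bound sets VEC against the dimmest level detectable on each ICD array. MARVELD2 stood at 6.26, 5.62, 6.05 and 5.66 in VEC, at 4.71, 5.41, 5.11 and 5.22 in CYT1, and at 5.33, 4.85, 5.30 and 4.80 in CYT2. It was at least 1.32-fold lower in CYT1 and at least 1.33-fold lower in CYT2 (limma adjusted p = 0.00146 and 0.00156). The ICD arrays were below VEC for both genes, and the fitted MARVELD2 difference in CYT1 was -1.24 within technical arrays 1 and -0.32 within technical arrays 2. Both genes were tested only because VEC was above background, so some difference was bound to be seen. OCLN, the gene of occludin, was above background on 0 of the 12 arrays, and whether its probes reach the transcript was not tested.

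TJP1 and CGN encode scaffolds on the inner face of the tight junction. TJP1 (ZO-1) lay at 10.47 to 10.67 in VEC, 10.19 to 10.33 in CYT1 and 10.26 to 10.49 in CYT2, so that CYT1 was below VEC and CYT2 overlapped it at the edge. It fell by 0.29 ± 0.08 in CYT1 (limma adjusted p = 0.0328) and differed by -0.22 in CYT2 (limma adjusted p = 0.0863), while its other probe fell by 0.39 and 0.40 (limma adjusted p = 0.0288 and 0.0295). The TJP1 call in CYT1 was lost when only the 2 groups were fitted, also with any 1 of their replicates left out. It was lost too with the technical number as the replicate (limma adjusted p = 0.0976). The claudin CLDN12 fell by 0.36 ± 0.08 in CYT2 (limma adjusted p = 0.0241) and differed by -0.19 in CYT1 (limma adjusted p = 0.126). The CLDN12 call was lost without any 1 VEC or CYT2 replicate and with the technical number as the replicate (limma adjusted p = 0.0536). CLDN1, a claudin needed for the skin barrier, differed by 0.12 and 0.32 and was not called (limma adjusted p = 0.388 and 0.0544).

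EPCAM was the 1 gene of the 33 called between the ICD forms (3.03%, against 0.472% of all tested probes, 0.202% higher and 0.271% lower). It is the gene of an epithelial adhesion protein that binds claudins such as CLDN7. EPCAM stood at 10.90, 11.15, 11.08 and 11.003 in VEC, at 10.32, 10.15, 10.23 and 10.26 in CYT1, and at 10.995, 10.89, 11.02 and 10.88 in CYT2. The CYT1 arrays were below all others, and the CYT2 arrays overlapped VEC. EPCAM was 1.74-fold lower in CYT1 (-0.80 ± 0.08; limma adjusted p = 0.00087) and differed by -0.09 ± 0.08 in CYT2 (limma adjusted p = 0.439). Set directly against CYT1, CYT2 was 1.64-fold higher (0.71 ± 0.08, 95% interval 0.52 to 0.90; limma adjusted p = 0.0387).

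The other EPCAM probes had the same order. They fell by 1.31 and 1.03 in CYT1 (limma adjusted p = 0.00109 and 0.00155) and differed by -0.19 and -0.34 in CYT2 (limma adjusted p = 0.334 and 0.0734). CYT2 was above CYT1 by 1.12 on 1 of them (limma adjusted p = 0.0449) and by 0.69 on the other (limma adjusted p = 0.069), with no overlap of arrays on either. The call between the ICD forms was lost when only the 2 ICD groups were fitted, also with any 1 of their replicates left out. It was lost too with the technical number as the replicate (limma adjusted p = 0.0676). The difference on the shown probe was 0.66 or more in every setting.

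**Figure D4:**
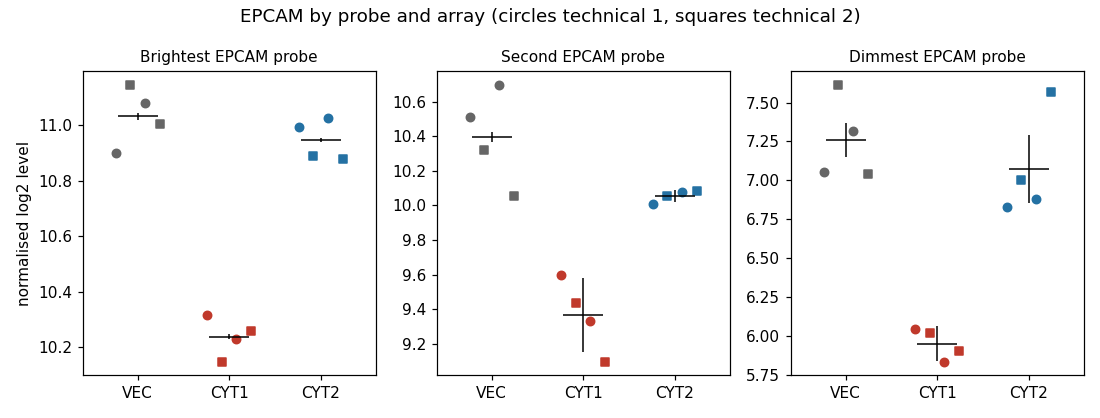
Normalised log2 level of the 3 EPCAM probes (panels from brightest to dimmest) on the 4 arrays of each group, with circles for technical number 1, squares for technical number 2, a horizontal mark at the group mean and a vertical bar for the SD of the 2 biological replicates. On each probe the 4 CYT1 arrays lie below all VEC and CYT2 arrays.

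Between CYT2 and CYT1, 10 of the 33 genes had an unadjusted p under 0.05, as did 3029 of the 17356 tested probes. The median difference was 0.07, against 0.0006 over all tested probes. All 4 CYT2 arrays lay above all 4 CYT1 arrays for 7 genes and below for 3, against 6.11% and 5.34% of all probes. Of the 10 tight junction genes 8 were higher in CYT2 than in CYT1, with a median of 0.29, and for 5 of them the arrays did not overlap. Desmosome genes had a median of -0.08 in the same comparison and 0 calls by limma, with 3 of 11 at an unadjusted p under 0.05. CXADR, an adhesion receptor of tight junctions, stood at 7.56, 7.30, 7.90 and 7.18 in VEC, at 6.83, 6.89, 7.26 and 6.87 in CYT1, and at 7.69, 7.53, 7.77 and 7.78 in CYT2. It fell by 0.52 ± 0.11 in CYT1 (limma adjusted p = 0.0146, lost without VEC replicate 2 or CYT1 replicate 1 and, at 0.0544, with the technical number as the replicate), although 1 CYT1 array overlapped VEC, and CYT2 was 0.73 ± 0.11 above CYT1 (95% interval 0.46 to 1.0; limma adjusted p = 0.06).

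CGN, the gene of cingulin, stood at 8.85, 8.60, 8.71 and 8.55 in VEC, at 8.48, 8.43, 8.32 and 8.30 in CYT1, and at 8.96, 8.90, 8.91 and 8.93 in CYT2. The CYT2 arrays were above, and the CYT1 arrays below, every VEC array. Neither difference from VEC was called, -0.29 in CYT1 (limma adjusted p = 0.0502) and 0.25 in CYT2 (limma adjusted p = 0.0864), and CYT2 was 0.54 above CYT1 (95% interval 0.32 to 0.77; limma adjusted p = 0.0681). For CLDN7 the same difference was 0.50 ± 0.08 (95% interval 0.30 to 0.71; limma adjusted p = 0.068). CXADR, CGN and CLDN7 thus missed the threshold for a difference between the ICD forms. The unadjusted intervals of 6 genes lay above 0 (CDH1, CLDN7, CGN, CXADR, EPCAM and GJB5), and those of 4 lay below it (DSP, DSC3, PKP3 and GJB2).

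Of the 3 gap junction genes in the list, both that could be tested fell in each ICD group. GJB5, a connexin gene of stratified epithelia, stood at 9.72, 9.95, 9.69 and 9.72 in VEC, at 8.20, 8.12, 8.14 and 7.97 in CYT1, and at 8.45, 8.27, 8.59 and 8.50 in CYT2. All ICD arrays were more than 1 log2 unit below the VEC arrays, and CYT1 was below CYT2. GJB5 was 3.17-fold lower in CYT1 (-1.66 ± 0.10; limma adjusted p = 0.000205) and 2.49-fold lower in CYT2 (-1.32 ± 0.10; limma adjusted p = 0.000592), the greatest falls of the 33 genes in both comparisons. CYT2 was 0.35 above CYT1, which did not pass (limma adjusted p = 0.181).

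GJB2, the connexin gene whose loss causes inherited deafness, stood at 10.995, 11.05, 11.07 and 10.78 in VEC, at 10.79, 10.59, 10.74 and 10.63 in CYT1, and at 10.56, 10.16, 10.53 and 10.35 in CYT2. CYT2 was below all other arrays, and the highest CYT1 array overlapped the lowest VEC array. GJB2 fell by 0.57 ± 0.08 in CYT2 (limma adjusted p = 0.00515) and by 0.29 ± 0.08 in CYT1 (limma adjusted p = 0.0435). The CYT1 call was lost when only the 2 groups were fitted, also with any 1 of their replicates left out. It was lost too with the technical number as the replicate (limma adjusted p = 0.153). The ICD groups did not pass a test against each other (-0.28 in CYT2, limma adjusted p = 0.18). GJA1, the most widespread connexin gene, was above background on 0 of the 12 arrays, and whether its probe reaches the transcript was not tested. Of 4 tested gap junction genes outside the list 2 rose in both groups and 0 fell, or 50% called, against 35.9% and 30.4% of all probes. PANX2, a pannexin, rose by 1.10 ± 0.12 and 0.82, and the connexin gene GJC1 by 0.82 ± 0.09 and 0.72.

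Of the 7 polarity genes and epithelial regulators in the list, 3 could be tested. CRB3, of the apical Crumbs complex, lay at 8.80 to 8.88 in VEC, 8.39 to 8.62 in CYT1 and 8.50 to 8.74 in CYT2, below VEC on all 8 ICD arrays, with differences of -0.33 and -0.20 that were not called (limma adjusted p = 0.0604 and 0.217). With the technical number as the replicate, CRB3 was called lower in CYT1 (limma adjusted p = 0.0452). PARD6B, of the Par complex, was above background on 2 VEC, 2 CYT1 and 0 CYT2 arrays, and LLGL2, of the basolateral Scribble group, on 2, 0 and 2, and neither was called. The epithelial splicing factor ESRP1 was above background on 2 arrays of each group, ESRP2 and the transcription factor GRHL2 on 0 arrays, and RAB25, an epithelial trafficking GTPase, on 2 CYT1 arrays alone. Whether the probes of ESRP2 and GRHL2 reach their transcripts was not tested. Among 17 tested polarity genes outside the list 1 rose and 3 fell in CYT1, and 0 rose and 2 fell in CYT2, or 23.5% and 11.8% called, below the shares of all probes. These included the polarity kinases MARK2 and MARK3. MARK2 differed by -0.66 ± 0.12 in CYT1 and was called. That call was lost with the technical number as the replicate (limma adjusted p = 0.0596) and with technical arrays 2 alone (limma adjusted p = 0.119). The MARK2 difference in CYT2 was -0.37 (limma adjusted p = 0.0621). MARK3 fell by 0.48 in CYT1, lost without VEC replicate 2 or CYT1 replicate 2. In CYT2 it fell by 0.38, lost with only the 2 groups fitted, and without VEC replicate 1, VEC replicate 2 or CYT2 replicate 2. DLG3, a scaffold, fell by 0.35 in CYT1 (limma adjusted p = 0.0337) and differed by -0.04 in CYT2. The DLG3 call was lost when only the 2 groups were fitted, also with any 1 of their replicates left out.

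Junction genes outside the 43 went both ways. Of 9 tested adherens junction genes 4 rose and 2 fell in CYT1, and 3 rose and 0 fell in CYT2. These are 66.7% and 33.3% called, against 35.9% and 30.4% of all probes. CDH2, the gene of N-cadherin, the cadherin of mesenchymal and neural cells, stood at 10.09, 9.99, 9.91 and 10.02 in VEC, at 11.51, 11.48, 11.73 and 11.44 in CYT1, and at 11.37, 11.42, 11.28 and 11.36 in CYT2. No array of an ICD group came near VEC. CDH2 was 2.90-fold higher in CYT1 (1.54 ± 0.09; limma adjusted p = 0.000153) and rose by 1.35 ± 0.09 in CYT2 (limma adjusted p = 0.000289). VCL (vinculin, an actin linker of adherens junctions) rose by 0.92 ± 0.10 and 0.62 ± 0.10, and AJUBA, a LIM-domain protein of the same junction, by 0.58 ± 0.12 and 0.41. The AJUBA call in CYT1 was lost without either VEC replicate, and that in CYT2 (limma adjusted p = 0.0443) also without either CYT2 replicate.

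Of 10 tested tight junction genes outside the list 3 rose and 3 fell in CYT1, and 2 rose and 2 fell in CYT2. These are 60% and 40% called, against 35.9% and 30.4% of all probes. CLDN15, a claudin that forms sodium pores in the gut, rose by 1.22 ± 0.10 in CYT1 and 0.79 ± 0.10 in CYT2. LSR, which gathers at tricellular corners with tricellulin, fell by 0.63 in CYT1 and 0.74 in CYT2. CLDN20 fell by 0.46 in CYT1 and was above background on 0 of the 4 CYT2 arrays, where it was at least 1.47-fold lower (limma adjusted p = 0.00735). The CLDN20 call in CYT1 (limma adjusted p = 0.035) was lost with only the 2 groups fitted, and without VEC replicate 2 or either CYT1 replicate.

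Of 10 tested regulators of epithelial identity outside the list, 0 rose in either group, and 6 fell in CYT1 and 5 in CYT2. These are 60% and 50% called, against 35.9% and 30.4% of all probes, with 19.2% and 15.6% lower. OVOL2, a zinc finger repressor of mesenchymal genes, stood at 8.87, 8.81, 8.80 and 8.72 in VEC, at 7.47, 7.44, 7.60 and 7.39 in CYT1, and at 8.09, 8.14, 8.37 and 7.99 in CYT2. The 3 groups were apart, with CYT2 in the middle. OVOL2 fell by 1.32 ± 0.08 in CYT1 and 0.65 ± 0.08 in CYT2 (limma adjusted p = 0.000205 and 0.00297). CYT2 was 0.68 ± 0.08 above CYT1 (limma adjusted p = 0.0449). That call was lost when only the 2 ICD groups were fitted, also with any 1 of their replicates left out. It was lost too with the technical number as the replicate (limma adjusted p = 0.086). KLF4, a Krüppel-like factor of epithelial differentiation, fell by 1.15 ± 0.09 and 0.83, and the membrane protease ST14 (matriptase) by 1.07 ± 0.11 and 0.57. The ST14 call in CYT2 was lost without VEC replicate 1 or CYT2 replicate 2.

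Transcription factors of epithelial-mesenchymal transition did not share a direction: of 5 tested, 2 were called higher and 2 lower in each comparison. That is 80% called in each, against 35.9% and 30.4% of all probes. ZEB2, a repressor of CDH1, stood at 5.31, 5.04, 5.28 and 5.79 in VEC, at 6.41, 6.32, 6.48 and 6.21 in CYT1, and at 5.73, 5.86, 6.31 and 5.92 in CYT2. It was above background on 1 VEC array and on all 8 ICD arrays, and 1 CYT2 array was below the highest VEC array. Since ZEB2 entered the test through the ICD arrays, some difference was bound to be seen, and the VEC level was measured on 1 array alone. The fitted differences were 1.0 ± 0.16 in CYT1 (limma adjusted p = 0.00499) and 0.60 in CYT2 (limma adjusted p = 0.0344). The CYT2 call was lost with only the 2 groups fitted, and without VEC replicate 1 or CYT2 replicate 2. On the deposited log2 values the differences were 0.36 and 0.20, and the CYT2 call was lost. TWIST2 fell by 0.61 in CYT1 and 0.58 in CYT2, with both calls lost without VEC replicate 2 and each without replicate 2 of its ICD group. FOXC2 fell by 0.66 in CYT1, lost without VEC replicate 1 or either CYT1 replicate, and differed by -0.43 in CYT2 (limma adjusted p = 0.0768).

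Markers of basal mammary epithelium were present throughout: KRT5, KRT14, ITGB4 and LAMB3 were above background on all 12 arrays, with a summed linear level of 16000 to 18100 in VEC, 13400 to 15400 in CYT1 and 13700 to 15100 in CYT2. These genes did not move together: the keratin genes KRT5 and KRT14 rose by 1.08 and 1.60 in CYT1 and by 0.95 and 0.51 in CYT2, LAMB3 fell by 0.71 and 0.53, and ITGB4 was not called. Between the ICD forms, KRT14 was 1.09 lower in CYT2 (limma adjusted p = 0.0305, and 0.0475 with the technical number as the replicate). That KRT14 call was lost without any 1 CYT1 or CYT2 replicate. The sum of 4 simple epithelial markers, 3 of them above background on all 12 arrays, ran from 10000 to 12100 in VEC, 12600 to 14200 in CYT1 and 13700 to 16800 in CYT2. They did not move together either. KRT7 rose by 0.32 in CYT1 and 0.42 in CYT2, and KRT8 rose by 1.01 in CYT2 and differed by 0.36 in CYT1, not called. KRT18 fell by 0.61 and 0.43, and KRT19 differed by -0.47 and -0.25, not called. With the technical number as the replicate, the KRT7 call in CYT1 was lost (limma adjusted p = 0.0746). KRT19 was then called lower in CYT1 (limma adjusted p = 0.0275). Of 7 fibroblast markers 0 were above background on all 12 arrays and 4 on none, with sums of 215 to 244, 289 to 342 and 256 to 302. Among them COL1A1, a collagen gene above background on 1 VEC array and all 8 ICD arrays, was called higher in CYT1 and CYT2, with fitted differences of 1.51 and 1.01 (limma adjusted p = 0.00157 and 0.00803). Since COL1A1 entered the test through the ICD arrays, some difference was bound to be seen. The other tested fibroblast marker, COL1A2, differed by -0.24 and -0.20 and was not called (limma adjusted p = 0.502 and 0.586). Of 4 leukocyte markers the defining PTPRC and CD3E were above background on 0 arrays, and the sums, which CD14 and CD68 made up, were 3020 to 3150, 2220 to 2310 and 2110 to 2290. Of 4 endothelial markers 3 were above background on no array, with sums of 106 to 127, 109 to 135 and 116 to 128. Of 4 markers of luminal breast cancer lines 2 were above background on no array, with sums of 139 to 167, 123 to 172 and 115 to 163. The part of these marker differences in the junction genes was not tested.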

How the data were processed

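Per the labels' protocols, total RNA was labelled as biotinylated cRNA with the Illumina TotalPrep kit. The authors deposited average bead intensity per probe, uncorrected and not normalised per the file headers and values, their detection p-values, and a second table whose log2 values equalled log2 of those intensities. Scanner software was not given in the sources used here. Each detection column was joined to its sample through this identity.

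The neqc function of limma 3.58.1 (R 4.3.3) corrected intensities for background, inferred from detection p-values, added an offset of 16, made arrays share quantiles and took log2. Tested probes had a detection p under 0.05 on each technical array of 2 or more of the 6 biological replicates, which left 17356 of 47323. Technical arrays were averaged, and 1 limma model of 3 groups (3 residual degrees of freedom, prior 3.07) gave 3 two-sided contrasts, with Benjamini-Hochberg adjustment within each over all probes. It was tested on simulated data. Folds on the offset scale understate changes of dim probes. A gene is shown by its brightest tested probe, and levels are not compared between genes. Plots used Python 3.11.15 and matplotlib 3.10.9.

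Where no array of the dimmer group detected a probe, the bound sets the brighter mean against the mean, per array, of the higher of the lowest detected signal and the probe's own. Members, lists and tests were chosen with earlier results of these data known. By rule, array values were given for up to 5 called members per class and fitted values for up to 3 called genes per other list, by largest change. Array values of DSC2, DSP, CXADR, CGN, CDH2, OVOL2 and ZEB2, and the ranges of TJP1, CRB3, CTNNA1 and JUP, were added after they were seen. The biological numbers were checked for pairing: deviations from group means correlated at -0.006, 0 and 0.016, so they were not used as a block. By technical number the deviations correlated at 0.063, 0.045 and 0.057. The median SD between replicates was 0.0824 by biological number and 0.0961 by technical number. Alternatives covered normalisation, offset, filter, probe choice, blocks, either technical set alone and each replicate left out. Fits with a replicate left out held only the 2 groups of the comparison. Leaving out a replicate of the third group thus equals fitting those 2 groups alone. Taking the technical number as the replicate was chosen after seeing the data.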

Additional observations from a re-analysis of the deposited data

Results flagged for a closer look

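Single arrays stood apart in 5 of the 99 sets of 4 arrays looked at, by Dixon's 95% critical value for the gap to the nearest array, which by its definition chance passes in about 1 in 20 sets. CDH3 was 11.47 on VEC biological replicate 1, technical array 2, against 11.29 to 11.31 on the other VEC arrays. GJB5 was 9.95 on the same array, against 9.69 to 9.72. CLDN7 was 10.54 on CYT1 biological replicate 2, technical array 2, against 10.75 to 10.78. CXADR was 7.26 on CYT1 biological replicate 2, technical array 1, against 6.83 to 6.89. CLDN12 was 9.85 on CYT2 biological replicate 1, technical array 1, against 9.55 to 9.60. EPCAM was the 1 gene whose ICD effects differed by a test of the difference, by 0.71 on the log2 scale (limma adjusted p = 0.0387, and 1.31e-09 to 0.234 over the alternatives).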

How the results depend on the processing

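Of the genes called against VEC, 7 of 18 in CYT1 (CDH1, DSG2, PKP2, CLDN7, MARVELD3, EPCAM and GJB5) and 6 of 13 in CYT2 (DSG2, PKP2, PKP3, MARVELD3, GJB2 and GJB5) kept their call in every alternative, and 0 reversed. MARVELD3 here, and MARVELD2 among the 18 and the 13, were tested only because VEC was above background. For both, some fall was bound to be seen. The number called in CYT1 was 23 on the deposited log2 values and 9 with technical arrays 2 alone. Of all probes 7329 and 3931 were called in these settings, against 6229 in the main fit. In CYT2 it was 21 on the deposited log2 values and 8 with technical arrays 2 alone. Of all probes 6630 and 2937 were called there, against 5272 in the main fit. With a VEC replicate left out, which leaves 1 VEC sample, fewer genes and fewer of all probes were called in both comparisons. Between CYT2 and CYT1, 1 gene was called. That count was 5 with quantile normalisation of uncorrected signals or all 12 arrays with the biological sample as a random block. It was 4 on the deposited log2 values, with an offset of 50, the strict detection filter, or group and technical number as a random block. The correlation fitted for the biological sample was -0.144, so that random block counted technical arrays as no less than separate replicates. The count was 0 by limma with no filter, either technical set alone, only the 2 groups fitted, and the technical number as the replicate with or without a block. In these settings 6 to 11 genes had an unadjusted p under 0.05, as did 2240 to 4785 of the probes tested in each. With the replicate block, limma called 15, 14 and 0 genes in the 3 comparisons (10 at an unadjusted p under 0.05 in the last). The causes were not tested. Over all probes, calls between CYT2 and CYT1 ran from 82 to 995 on uncorrected signals and 1094 with the random block, and to 0 without any 1 CYT1 or CYT2 replicate.

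Dim genes lost size where signals were not background-corrected: in CYT1, MARVELD3 went from -1.27 to -0.49 and CLDN4 from -0.92 to -0.36. The 2 replicates per group and signals near background limit all values of CLDN4, MARVELD2 and MARVELD3. The slide as a block was not run, because the files used here give no slide.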

Other observations

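Further genes outside the list are given here, named after their values were seen. CLDN23, a claudin, fell by 0.73 in CYT1 (limma adjusted p = 0.00353) and differed by -0.19 in CYT2 (limma adjusted p = 0.227), with CYT2 0.54 above CYT1 (limma adjusted p = 0.0839). The inhibitors of membrane serine proteases SPINT1 and SPINT2, partners of matriptase, fell by 0.49 and 0.69 in CYT1, and SPINT2 also fell by 0.55 in CYT2, while SPINT1 differed by -0.27 there (limma adjusted p = 0.114). SNAI2, a zinc finger repressor of CDH1, fell by 0.60 in CYT2 (limma adjusted p = 0.0036) and differed by -0.16 in CYT1 (limma adjusted p = 0.161), and the difference between the ICD forms did not pass (-0.43; limma adjusted p = 0.0797). PVRL3, a nectin, rose by 0.38 in CYT1 (limma adjusted p = 0.0154) and differed by -0.04 in CYT2 (limma adjusted p = 0.748), a difference between the forms of -0.41 that did not pass (limma adjusted p = 0.0876). JAM3, a junctional adhesion molecule, rose by 0.72 in CYT1 and 0.45 in CYT2.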
